A study of Rattus norvegicus with 192 samples.

Results

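Vancomycin was compared with no vancomycin in the hypothalamus of rats that all received PFOS. The comparison set 11 libraries from rats given vancomycin together with PFOS against 12 libraries from rats given PFOS alone, 23 of the 192 libraries of the series. Members were taken by the treatment in their labels, and 1 of the 24 labelled libraries, which held 1280 counts, was left out because its total was under 100000 counts. No gene of 6596 tested passed the threshold. The transcripts of hemoglobin, of several glial markers and of most cytosolic ribosomal proteins lay lower with the combination, and the thyrotropin-releasing hormone gene Trh lay higher, but none of these differences passed the test. Of these, the median of the ribosomal proteins was -0.12 on the log2 scale, and -0.028 with log2 depth as a covariate. Trh was at 0.33, and at 0.21 without PFOS library 31, which stood apart from all other hypothalamus libraries.

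The animals were adult male rats of the outbred Crl:CD(SD) stock, wild type. Daily gavage ran for 7 days, from postnatal day 56 to postnatal day 62. The PFOS group received 3 mg of PFOS per kg body weight per day, and the combination group received the same dose together with 8 mg of vancomycin per kg per day. The corn oil (vehicle) group and the group given 8 mg of vancomycin per kg alone, with 12 hypothalamus libraries each, entered the same statistical model and gave the values for vancomycin in rats without PFOS. RNA was measured by 3' bulk RNA barcoding, in which the RNA of each sample receives its own short DNA barcode before the samples are pooled. The labels name each library as a separate sample and do not say how much of the hypothalamus was dissected, so a p-value measures the spread between these libraries.

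The hypothalamus is the brain region that links the nervous system to the pituitary. Its neurons make peptides that drive hormone release (TRH, GnRH, GHRH, CRH), that enter the blood directly (oxytocin, vasopressin) or that control feeding and arousal (NPY, AgRP, POMC, MCH, orexin). TRH raises pituitary thyrotropin, and thyroid hormone acting through its receptors represses the TRH gene. PFOS (perfluorooctane sulfonate) is a persistent perfluorinated surfactant that is known to lower circulating thyroid hormone in rats. Vancomycin is a glycopeptide antibiotic that acts on Gram-positive bacteria and is poorly absorbed from the gut.

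The libraries differed in depth and in barcode. Total counts ran from 379843 to 1075712 with PFOS alone (mean 700533 ± 221229, SD, n = 12) and from 172700 to 832058 with the combination (mean 532574 ± 176846, n = 11). The mean difference was -167960 counts (permutation test with 100000 resamples, two-sided, p = 0.0584). Each treatment filled its own row of the plate, so treatment and row cannot be told apart. The well barcodes are shown because the last wells of the combination row carried barcodes of another base composition, with G and C in capitals. Every PFOS library and combination libraries 37 to 43 had barcodes with 1 G or C base, as in these examples.
PFOS library 25: taaaaC
PFOS library 31: tatCat
combination library 37: ttaaCt
combination library 41: ttGtta
Combination library 44, which was left out, had 2 such bases, and the last 4 had 3.
combination library 44: ttGGat
combination library 45: atCGaG
combination library 46: CatCaG
combination library 47: CGaCtt
combination library 48: GaaGaC
The 4 libraries with 3 such bases had a mean total of 486133 ± 113878 counts (n = 4), and the 7 others of the combination had 559111 ± 208280 (n = 7). Where leaving out these 4 libraries (45 to 48) moved a gene's difference by more than 1.5 times or turned its sign, the value without them is given beside it. For genes at an unadjusted p under 0.05, the value with log2 depth as a covariate is given by the same measure.

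PFOS library 31 stood apart from all other hypothalamus libraries. Its oxytocin transcript Oxt was at 4.97 CPM (a gene's counts per 1000000 counts of its library), while the 46 other hypothalamus libraries of all 4 treatments lay between 359 and 1865 CPM. The vasopressin gene Avp was at 0.993 CPM against a range of 153 to 903 in those 46. Trh was at 32.8 CPM against 142 to 286. In the opposite direction, Prkcd, a protein kinase C gene abundant in thalamus, was at 378 CPM against 2.96 to 83.5. The thalamic transcription factor gene Tcf7l2 was at 504 CPM against 37.6 to 133. The habenular receptor gene Gpr151 was at 32.8 CPM, and the highest of the 46 others was 1.15. The summed level of 12 hypothalamic neuron markers was 146 CPM in this library and 2266 to 5018 CPM in the 11 other PFOS libraries. The summed level of 12 thalamus, striatum and cortex markers was 932 CPM in it and at most 198 CPM in the others. Oxt and Avp were thus near 0 in this library and present in the other 11 PFOS libraries and in all 11 combination libraries. Pomc, another of the 12 hypothalamic neuron markers, was at 84.4 CPM in library 31 and 76 to 196 CPM in the 11 others. Results are given with and without library 31, which alone set some of them. Prkcd differed by -1.14 ± 0.54 (unadjusted p = 0.0385) with it and by 0.13 (p = 0.747) without it, and Tcf7l2 by -0.61 ± 0.29 (p = 0.0413) and -0.076 (p = 0.703), on the log2 scale with the standard error (SE). With log2 depth as a covariate Prkcd was at -0.68.

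**Figure D1:**
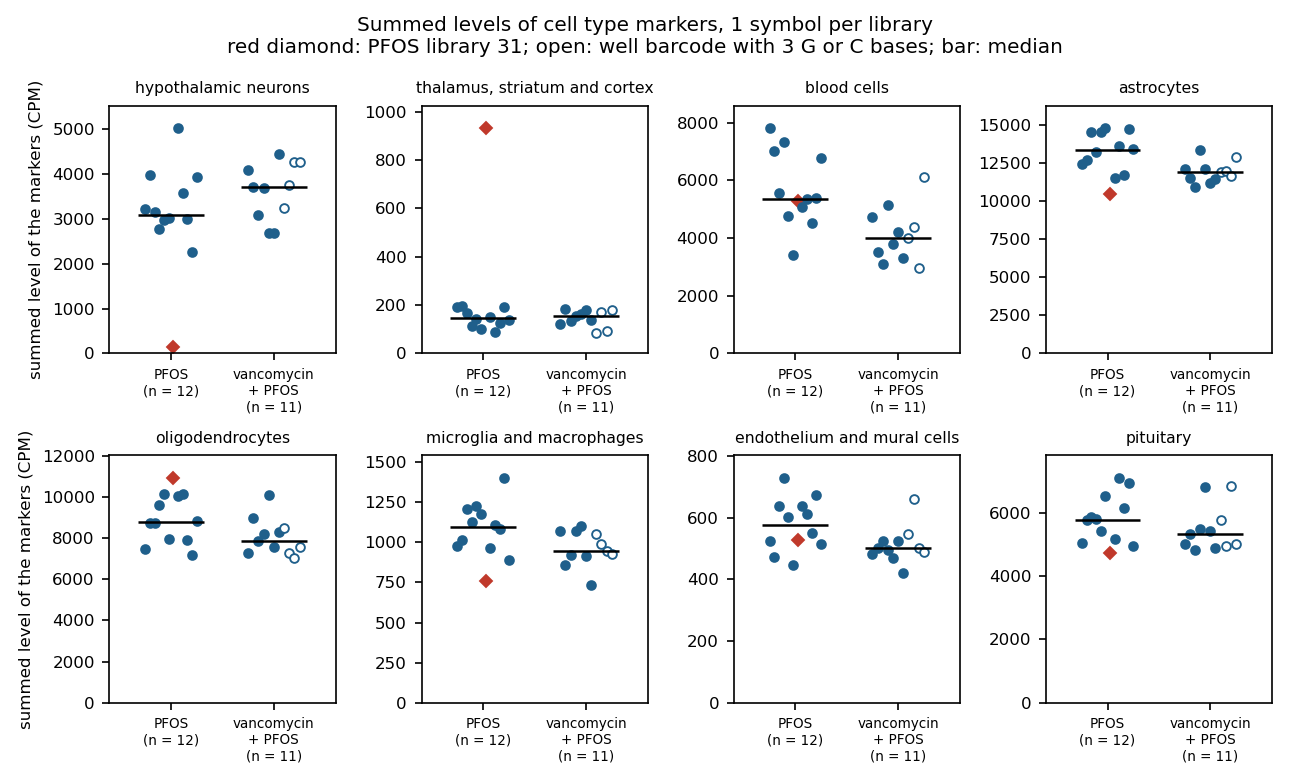
Summed level of the markers of 8 cell types or tissues in CPM (vertical axes, from 0) for each PFOS library (n = 12) and each combination library (n = 11); the bar is the median, the red diamond is PFOS library 31 and open circles are libraries with 3 G or C bases in the barcode. Library 31 lies at 146 CPM for hypothalamic neurons and 932 CPM for thalamus, striatum and cortex, and the blood cell median is 5368 CPM with PFOS and 3995 CPM with the combination.

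Vancomycin on top of PFOS gave 0 called genes of 6596 (0%) at an adjusted p under 0.05 in edgeR's quasi-likelihood test, and the smallest adjusted p was 0.463. At an unadjusted p under 0.05, 490 genes (7.43%) differed, 192 higher (2.91%) and 298 lower (4.52%) with the combination. DESeq2 and limma voom also called 0 genes, with 467 and 603 genes at an unadjusted p under 0.05. Without PFOS library 31, edgeR called 0 of 6537 genes (0%), with 514 (7.86%) at an unadjusted p under 0.05, 209 higher (3.2%) and 305 lower (4.67%), and a smallest adjusted p of 0.413. The log2 fold changes (combination minus PFOS, so that a value of 1 is a doubling) ran from -1.18 to 1.22 with a median of -0.0072 and a median SE of 0.16. Over all 6596 genes, 3190 lay above 0 and 3406 below, and counts of list genes above or below 0 are read beside these. In all that follows, "higher" and "lower" with a p describe the unadjusted value of a gene that did not pass the adjusted test.

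The precision bounded how large a difference could have gone uncalled. The 95% interval of the fold change lay within 2-fold in both directions for 6388 genes (96.8%), within 1.5-fold for 4737 (71.8%) and within 1.2-fold for 1036 (15.7%). A difference of less than 1.2-fold could therefore not be bounded for most genes at this depth.

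**Figure D2:**
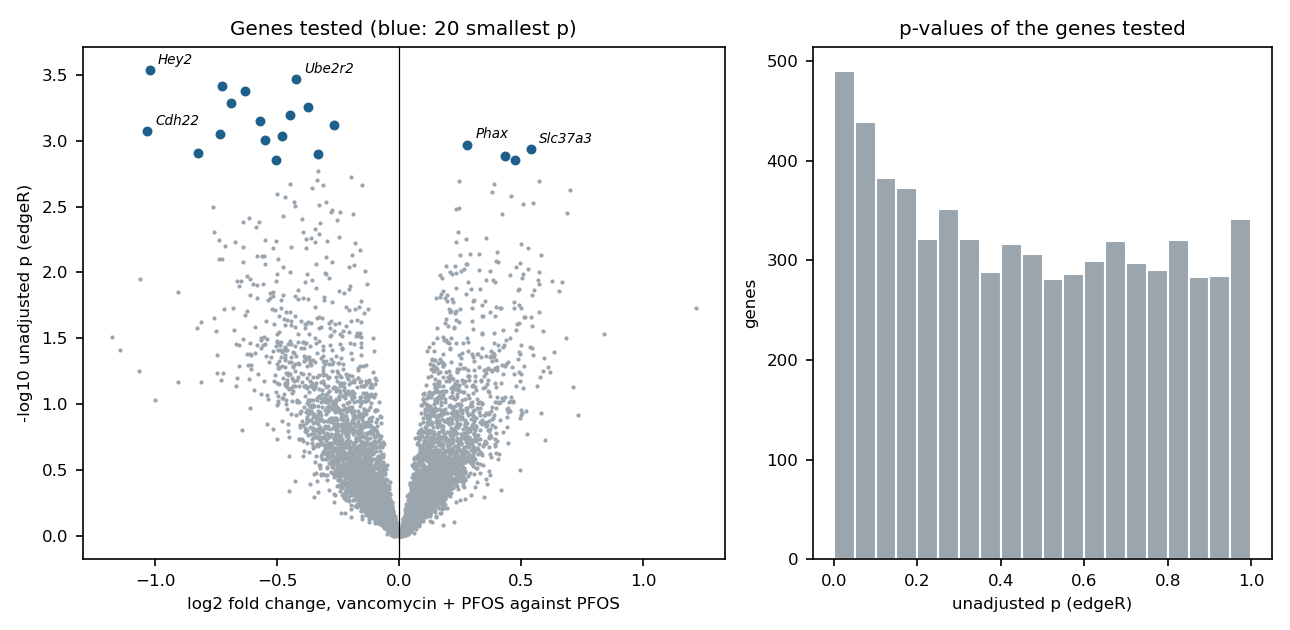
Left, log2 fold change of the combination against PFOS (horizontal) and -log10 of the unadjusted edgeR p (vertical) for 6596 genes, with the 20 genes of smallest p in blue; right, the number of genes in each of 20 bins of p. In the lowest bin there are 490 genes, and none passes adjustment.

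No gene of the thyroid axis passed the test. Of 18 listed genes, 10 had enough counts to be tested, none reached an unadjusted p under 0.05, and the median log2 fold change was -0.21 (-0.20 without library 31), beside -0.0072 over all genes. Trh lay between 32.8 and 286 CPM with PFOS alone (median 195) and between 181 and 276 CPM with the combination (median 240.4). The groups overlapped throughout, with 9 of 11 combination libraries above the PFOS median and library 31 the lowest of all. The difference in Trh was 0.33 ± 0.16 on the log2 scale (SE; unadjusted p = 0.0525, adjusted p = 0.671), 0.21 without library 31 (unadjusted p = 0.0513), and 0.23 without the 4 combination libraries of other barcode composition.

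The thyroid hormone receptor gene Thra lay between 32.8 and 72.3 CPM with PFOS alone (median 51.6) and between 30.1 and 88.9 CPM with the combination (median 49.5), a difference of -0.041 ± 0.18 (adjusted p = 0.983) whose sign changed with the processing, at -0.10 without library 31 and 0.014 without libraries 45 to 48. Dio2, the deiodinase that makes active hormone in astrocytes and tanycytes, was between 16.5 and 33 CPM with PFOS alone (median 21.2) and between 14.7 and 35.8 CPM with the combination (median 24.7), a difference of -0.0059 ± 0.20 (adjusted p = 1), with a sign that also changed, to 0.034 without library 31 and 0.054 without libraries 45 to 48. The hormone-responsive transcription factor gene Klf9 differed by -0.28 ± 0.18 (adjusted p = 0.73), and by -0.12 without libraries 45 to 48, with levels from 30 to 96.9 CPM with PFOS and from 22.6 to 61.2 CPM with the combination. The retinoid X receptor gene Rxrb, a partner of the thyroid hormone receptors, was lowest in the list at -0.50 ± 0.29 (p = 0.0948), and at -0.21 with log2 depth as a covariate. Slco1c1, a thyroxine transporter of brain vessels and astrocytes, was at -0.21 ± 0.15 (p = 0.166), and the corepressor gene Ncor1 at -0.26 ± 0.16 (p = 0.113). Other genes of the axis were too scarce to test. Thrb had 106 counts over the 23 libraries, the hormone-binding protein gene Ttr had 71, the hormone target Hr had 73 and the inactivating deiodinase gene Dio3 had 5.

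Hypothalamic peptide genes lay slightly higher with the combination when library 31 was included. Of 23 tested, 15 were above 0, beside 3190 of all 6596 genes, with a median of 0.15. At an unadjusted p under 0.05, 3 were higher and 1 lower, beside 2.91% and 4.52% of all genes. Without library 31 the median was 0.069 with 1 higher and 1 lower, without libraries 45 to 48 it was 0.041, and without both library 31 and the 4 libraries of other barcode composition it was -0.027. Tac1, which encodes substance P and neurokinin A, lay between 79.5 and 122 CPM with PFOS alone (median 104) and between 101 and 154 CPM with the combination (median 118). It was above the PFOS median in 9 of 11 combination libraries, at 0.25 ± 0.090 (p = 0.00736, adjusted p = 0.53), and 0.21 without library 31.

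The reproductive axis peptide gene Gnrh1 was between 0 and 21.5 CPM with PFOS alone (median 10.3) and between 7.53 and 32.5 CPM with the combination (median 16.6). It was at 0 in library 31, the difference was 0.84 ± 0.37 (p = 0.0293) and became 0.68 (p = 0.0549) without that library. Neurotensin (Nts) differed by 0.44 ± 0.20 (p = 0.0326), and by 0.33 (p = 0.0733) without library 31. The cholecystokinin gene Cck had the lowest value of the list, -1.06 ± 0.40 (p = 0.0113), and library 31 held 372 CPM of it while the 11 other PFOS libraries lay between 23.7 and 85.4. Without library 31 the Cck difference was -0.39 (p = 0.225), and with log2 depth as a covariate -0.58.

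Peptides of the magnocellular and feeding neurons overlapped between the groups. Oxt ran from 941 to 1394 CPM in the 11 PFOS libraries other than 31 and from 731 to 1529 CPM with the combination, a difference of 0.22 ± 0.28 with library 31 (adjusted p = 0.898), 0.090 without it and 0.041 without libraries 45 to 48. Avp ran from 336 to 537 CPM in those 11 and from 217 to 585 CPM with the combination, with 8 of 11 combination libraries below the PFOS median. Its difference was -0.22 ± 0.30 (adjusted p = 0.911), -0.35 without library 31 (unadjusted p = 0.116) and -0.38 without libraries 45 to 48. The appetite-suppressing precursor Pomc was between 76 and 196 CPM with PFOS alone (median 137) and between 71.8 and 176 CPM with the combination (median 113), a difference of -0.16 ± 0.17 (adjusted p = 0.861), and of -0.057 without libraries 45 to 48. The feeding peptide Npy differed by 0.088 ± 0.18 (adjusted p = 0.953), by -0.015 without library 31 and by -0.076 without libraries 45 to 48. Agrp, which opposes POMC peptides, differed by 0.34 ± 0.29 (0.18 without library 31).

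Among lateral hypothalamic peptides, Pmch (melanin-concentrating hormone) ran from 395 to 2623 CPM in the 11 other PFOS libraries and from 885 to 2134 CPM with the combination. The difference in Pmch was 0.41 ± 0.34, and 0.28 without library 31 (p = 0.291). The orexin gene Hcrt differed by 0.19 ± 0.28 (0.065 without library 31), with 1 combination library at 39 CPM and the others spread as widely as the PFOS libraries. Without library 31, somatostatin (Sst) differed by 0.0095, galanin (Gal) by 0.073, enkephalin (Penk) by 0.052 and dynorphin (Pdyn) by 0.10, each with an unadjusted p of at least 0.389. With library 31 kept, Sst, Gal and Pdyn were at 0.13, 0.19 and 0.24, and at 0.036, 0.10 and 0.15 without libraries 45 to 48. The stress peptide gene Crh (80 counts in 23 libraries) and the reproductive peptide gene Kiss1 (15 counts) were too scarce to test.

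**Figure D3:**
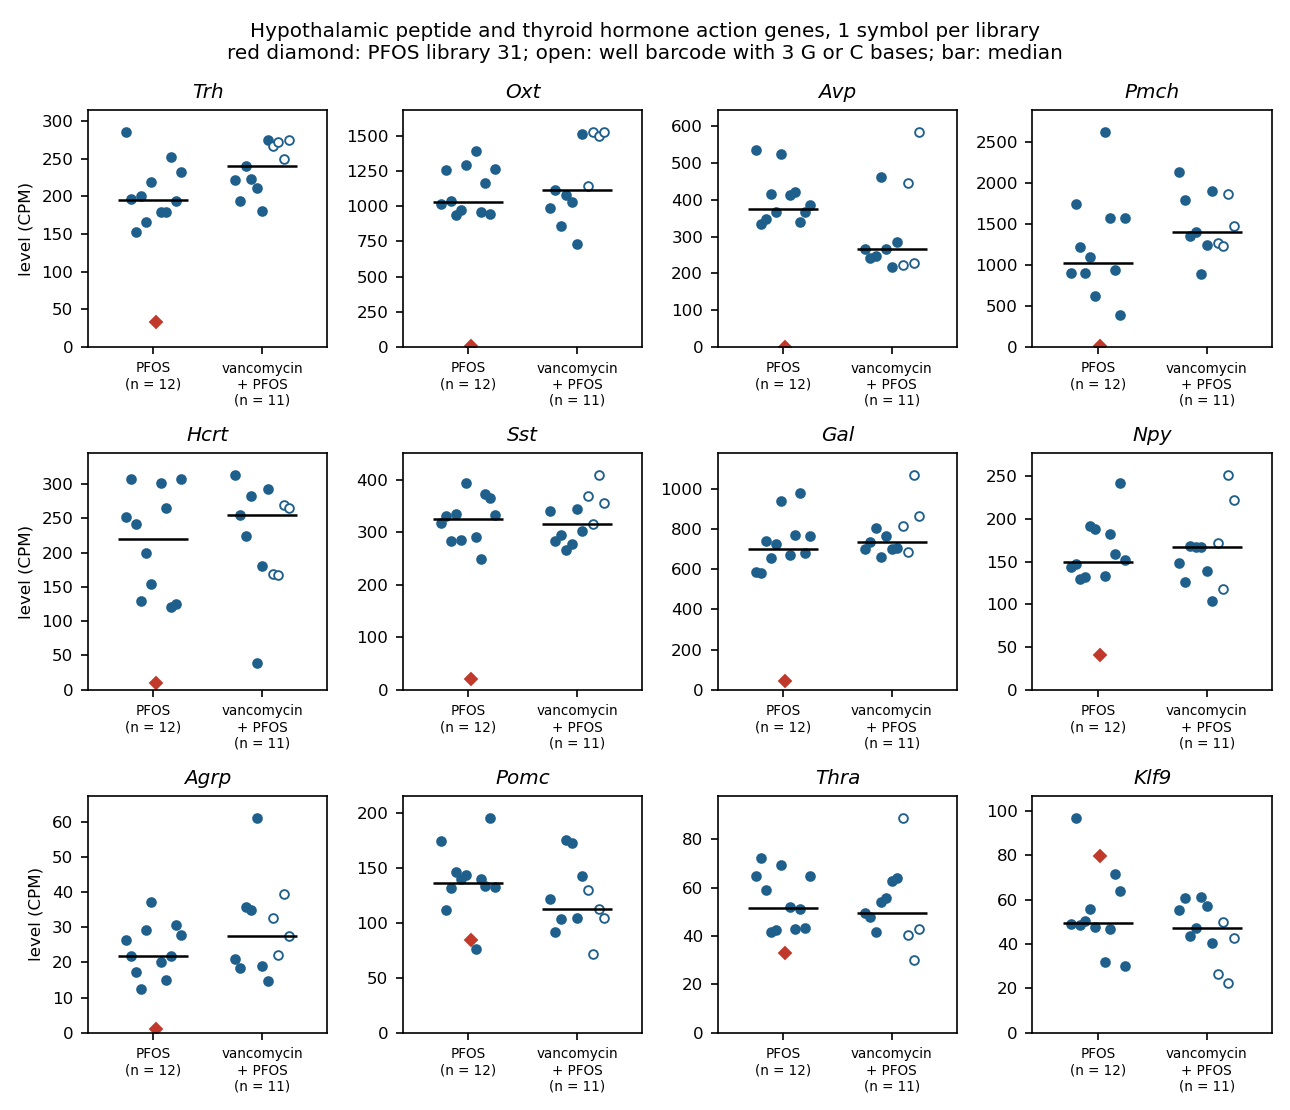
Level in CPM (vertical axes, from 0) of 10 peptide genes and of Thra and Klf9 in each PFOS library (n = 12) and each combination library (n = 11); bars are medians, the red diamond is PFOS library 31 and open circles are libraries with 3 G or C bases in the barcode. Trh has medians of 195 and 240.4 CPM, Avp of 376 and 265 CPM, and in each panel the 2 groups overlap.

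Genes that make and release peptides and transmitters varied little. Of 13 genes of peptide processing and granules, 2 were higher at an unadjusted p under 0.05, and 1 without library 31, beside the 2.91% and 3.2% of all genes given above. These were Scg5, a chaperone of the prohormone convertase PC2, at 0.16 ± 0.081 (p = 0.0457), and Pam, which amidates peptides, at 0.21 ± 0.11 (p = 0.0483). Scg5 was at 0.17 (p = 0.0477) without library 31, 0.091 without libraries 45 to 48 and 0.27 with log2 depth as a covariate. Pam was at 0.19 (p = 0.0801) without library 31 and 0.11 with that covariate. Receptors for feeding and hormones were scarce, with 4 of 21 tested. Igf1r, the insulin-like growth factor 1 receptor, was at -0.61 ± 0.29 (p = 0.0423), and at -0.52 (p = 0.0872) without library 31. Npy1r, a receptor of NPY, was at 0.17 ± 0.18 (p = 0.324), 0.30 without library 31 and 0.10 without libraries 45 to 48. The leptin receptor gene Lepr had 8 counts and the melanocortin receptor gene Mc4r had 91 counts over the 23 libraries.

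In GABA and glutamate transmission, 1 of 16 tested genes was lower at an unadjusted p under 0.05, the GABA-B receptor subunit gene Gabbr1 at -0.23 ± 0.11 (p = 0.0377, and 0.117 without library 31, whose 364 CPM was the highest). The GABA-A subunit gene Gabrb1 was at 0.18 ± 0.089 (p = 0.0518), and at 0.087 without libraries 45 to 48. The GABA-synthesizing enzyme genes Gad1 and Gad2 were at 0.21 ± 0.19 (0.086 without library 31) and 0.52 ± 0.38. The synaptic vesicle list had a median of -0.11 over 16 genes and -0.012 without library 31, and -0.0053 without libraries 45 to 48. Its leading members were the vesicle proteins Syp at -0.19 ± 0.094 (p = 0.0458) and Vamp2 at -0.17 ± 0.090 (p = 0.063), and both were highest in library 31. Without it they were at -0.13 and -0.11, and without libraries 45 to 48 Vamp2 was at -0.030. Postsynaptic genes (7 tested) held none at an unadjusted p under 0.05, with Camk2b at 0.17 ± 0.15 and Nlgn2 at -0.21 ± 0.25. Of 6 monoamine and histamine genes, none reached it either. The histamine-synthesizing enzyme gene Hdc was at -0.14 ± 0.30, -0.29 without library 31 and -0.049 without libraries 45 to 48.

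The 20 genes of smallest p all had an adjusted p of 0.463, and the 2 groups overlapped in each of them. They were picked by p, so counts of combination libraries below or above the PFOS median add no independent evidence. The same holds for genes picked within a list by p or after their values were seen. Among transcription factors, Hey2, an effector of Notch signalling, lay between 5.98 and 18.9 CPM with PFOS alone (median 13.6) and between 2.96 and 11.9 CPM with the combination (median 5.63), with all 11 combination libraries below the PFOS median. Its difference was -1.02 ± 0.27 (p = 0.000292), on 152 counts over the 23 libraries. The ETS factor gene Etv1 lay between 54.3 and 241 CPM with PFOS alone (median 82.7) and between 47.9 and 85.3 CPM with the combination (median 69), a difference of -0.73 ± 0.19 (p = 0.000382). Its highest value came from library 31, without which the difference was -0.52.

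Among metabolic and signalling enzymes, the mitochondrial malic enzyme gene Me2 was between 58.6 and 138 CPM with PFOS alone (median 113) and between 29.1 and 115 CPM with the combination (median 74.2), a difference of -0.63 ± 0.17. Without the 4 combination libraries of other barcode composition the Me2 difference was -0.36. Stk11, which encodes the kinase LKB1 upstream of AMPK, was at -0.38 ± 0.10, and at -0.20 without those 4. The protein-citrullinating enzyme gene Padi2, expressed in oligodendrocytes, lay between 45.7 and 132 CPM with PFOS alone (median 75.9) and between 33.2 and 81.5 CPM with the combination (median 51.4). It was below the PFOS median in 10 of 11 combination libraries, at -0.57 ± 0.16 (p = 0.000706). With log2 depth as a covariate Padi2 was the 1 gene called, at -0.74 (adjusted p = 0.0197), and its adjusted p ranged from 0.00517 to 0.888 over 16 alternatives. Mboat2, a lysophospholipid acyltransferase, differed by -0.82 ± 0.24, with all 11 combination libraries below the PFOS median. Lcat, the cholesterol-esterifying enzyme that astrocytes secrete, was between 34.1 and 107 CPM with PFOS alone (median 58.6) and between 18.8 and 58.5 CPM with the combination (median 39.7), a difference of -0.74 ± 0.21 that also had all 11 below.

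Other genes of this set were the zinc-binding metallothionein gene Mt3 at -0.27 ± 0.075 (-0.18 with log2 depth as a covariate), the ubiquitin-conjugating enzyme gene Ube2r2 at -0.43 ± 0.11, and the cadherin gene Cdh22 at -1.04 ± 0.29. The potassium channel gene Kcnd2 (Kv4.2) was at -0.50 ± 0.15, and at -0.17 without the 4 libraries of other barcode composition. The RNA-binding protein gene Raly was at -0.55 ± 0.16, and Mif4gd was at -0.69 ± 0.19. Only 4 of the 20 were higher with the combination. Phax, the adaptor for export of small nuclear RNA, lay between 119 and 165 CPM with PFOS alone (median 138) and between 142 and 226 CPM with the combination (median 166), with all 11 combination libraries above the PFOS median, at 0.28 ± 0.081. The Rab-like GTPase gene Rabl2 lay between 28.7 and 53.8 CPM with PFOS alone (median 38.1) and between 44.2 and 100.2 CPM with the combination (median 49.7), again with all 11 above, at 0.47 ± 0.14. The sugar-phosphate carrier family gene Slc37a3 was at 0.54 ± 0.16 and the gamma-tubulin gene Tubg2 at 0.43 ± 0.13, each with 9 of 11 above, and Slc37a3 was at 0.36 with log2 depth as a covariate. The remaining members, Hbb, Hbb-b1 and Lhb, are described with the blood and pituitary markers.

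**Figure D4:**
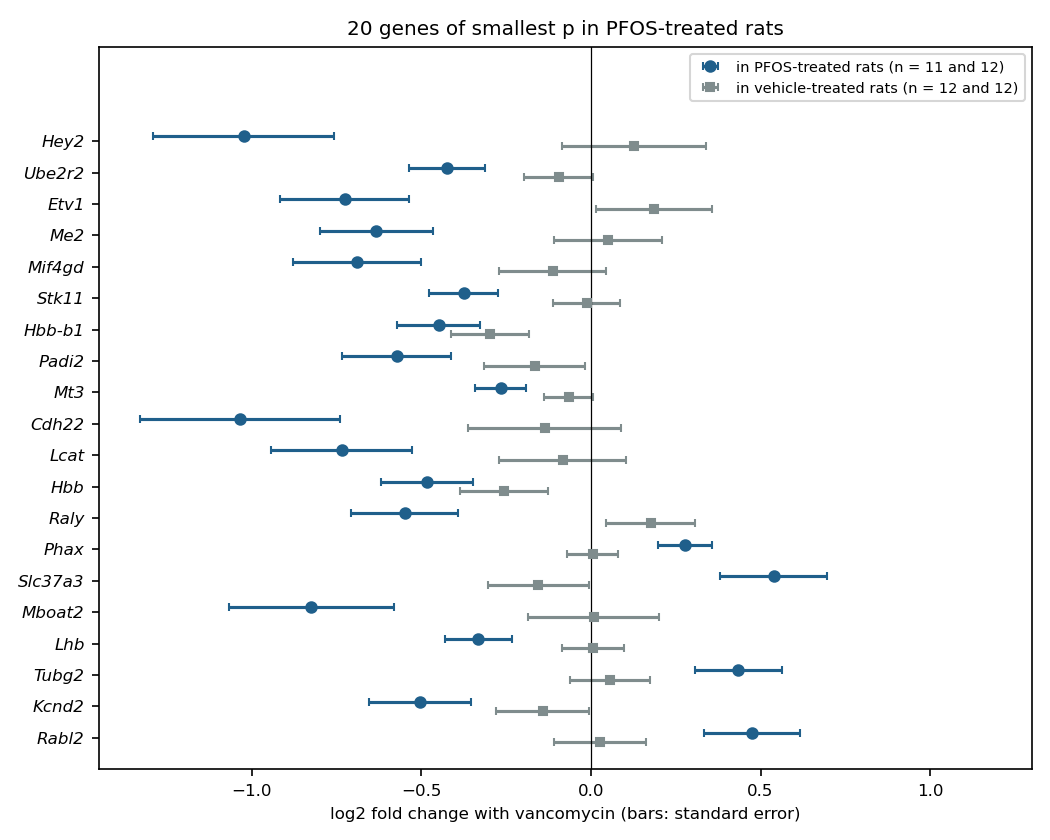
Log2 fold change with vancomycin (horizontal; bars are SE) for the 20 genes of smallest p, in PFOS-treated rats (circles, n = 11 and 12) and in vehicle-treated rats (squares, n = 12 and 12). Hey2 is at -1.02 with PFOS and 0.13 without it, and Hbb-b1 at -0.45 and -0.30.

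Genes that respond to glucocorticoid lay lower with the combination, with 8 of 9 tested below 0, a median of -0.29 (-0.31 without library 31) and 3 lower at an unadjusted p under 0.05, beside 4.52% of all genes. Nfkbia, the inhibitor of NF-kappa-B, was between 80.1 and 326 CPM with PFOS alone (median 227) and between 44.5 and 220.4 CPM with the combination (median 145), with all 11 combination libraries below the PFOS median. The difference was -0.64 ± 0.21 (p = 0.00414, adjusted p = 0.489), and -0.30 without the 4 libraries of other barcode composition. Sgk1, the serum and glucocorticoid regulated kinase, was between 63.7 and 393 CPM with PFOS alone (median 302) and between 68.2 and 257 CPM with the combination (median 143), also with all 11 below, at -0.75 ± 0.33 (p = 0.0278), at -0.50 without those 4 and at -0.46 with log2 depth as a covariate. Errfi1, a feedback inhibitor of EGF receptor signalling, was at -0.52 ± 0.22 (p = 0.019). These medians stand beside -0.0072 for all genes, and the direction of the list held in all 16 alternatives.

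Immediate early genes, which report recent neuronal activity, were mostly too scarce, with 6 of 21 tested and 2 counts of Egr1 over the 23 libraries. The phosphatase genes Dusp1 and Dusp6 were lower at -0.76 ± 0.32 (p = 0.0222) and -0.65 ± 0.25 (p = 0.0117). Library 31 held the highest level of both, 79.5 and 316 CPM, and without it they were at -0.27 (p = 0.312) and -0.41 (p = 0.0703). Without libraries 45 to 48 Dusp6 was at -0.29. Fos was between 3.73 and 16.5 CPM with PFOS alone (median 7.39) and between 0 and 19.5 CPM with the combination (median 9.52), a difference of 0.36 ± 0.39. No gene of 9 tested in the circadian clock list reached an unadjusted p under 0.05, and its leading members Bhlhe40 and Cry2 were at -0.38 ± 0.24 and -0.26 ± 0.19. Without library 31 they were at -0.24 and -0.15, and without libraries 45 to 48 Bhlhe40 was at 0.052.

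The inflammation and interferon list had 4 of 15 tested genes lower and 0 higher at an unadjusted p under 0.05, beside 4.52% lower and 2.91% higher of all 6596 genes, with a median of -0.21 beside -0.0072. Isg15, a ubiquitin-like protein induced by interferon, was between 18.5 and 76.8 CPM with PFOS alone (median 40.2) and between 11.3 and 50.1 CPM with the combination (median 28.2), at -0.63 ± 0.26 (p = 0.0209). Dtx3l, a ubiquitin ligase of the interferon response, was at -0.81 ± 0.35 (p = 0.0237), and at -0.49 without libraries 45 to 48. In rats without PFOS, vancomycin gave -0.55 ± 0.23 for Isg15 and -0.92 ± 0.28 for Dtx3l, against vehicle libraries that this comparison does not share. Nfkbia, also of this list and lower with the combination, was at 0.036 ± 0.20 there, and no gene passed the adjusted test. The cytokine gene Il1b had 10 counts and Il6 had 2. Tnf had 0 counts over the 23 libraries, which allows a level of up to 0.21 CPM (3 counts in 14264712, counting error only).

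Markers of several glial cell types lay lower with the combination. All 10 astrocyte markers were tested, 9 were below 0, and the median was -0.14 (-0.16 without library 31, with all 10 below). The summed level of the astrocyte markers was 10445 to 14790 CPM with PFOS (mean 13144 ± 1413, SD, n = 12) and 10904 to 13382 CPM with the combination (mean 11920 ± 719, n = 11). Aldoc, the astrocyte aldolase, was between 2657 and 3423 CPM with PFOS alone (median 3244) and between 2615 and 2976 CPM with the combination (median 2881), with all 11 combination libraries below the PFOS median, at -0.15 ± 0.048 (p = 0.00216, adjusted p = 0.479). The calcium-binding protein gene S100b was at -0.16 ± 0.073 (p = 0.0345). The secreted chaperone gene Clu, abundant in astrocytes and counted here with the apolipoproteins, was between 1428 and 1912 CPM with PFOS alone (median 1620) and between 1285 and 1580 CPM with the combination (median 1437), also with all 11 below, at -0.20 ± 0.061 (p = 0.00188). In these bulk samples, fewer cells of a type and less RNA per cell cannot be told apart.

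All 12 oligodendrocyte markers were below 0, with a median of -0.17 (-0.15 without library 31, with 11 below, and -0.10 without libraries 45 to 48). The myelin basic protein gene Mbp was between 2019 and 3231 CPM with PFOS alone (median 2890) and between 1862 and 2898 CPM with the combination (median 2327), at -0.28 ± 0.14 (p = 0.0456), at -0.26 without library 31 (p = 0.0707) and at -0.14 with log2 depth as a covariate. Mog, a myelin surface protein, was at -0.17 ± 0.085 (p = 0.053). With that covariate, 9 of the 12 were below 0, with a median of -0.15. The oligodendrocyte lineage factor genes Olig1 and Olig2 were at -0.26 ± 0.18 (-0.12 without libraries 45 to 48) and -0.43 ± 0.23. Of 9 microglia and macrophage markers, 8 were below 0 and 2 were lower at an unadjusted p under 0.05, beside 4.52% of all genes. These 2 were the calcium-binding protein gene Aif1 at -0.35 ± 0.12 (p = 0.00468) and the complement gene C1qb at -0.43 ± 0.19 (p = 0.026). The microglial receptor gene Cx3cr1 was at -0.027 ± 0.24, and at -0.24 without libraries 45 to 48. Tanycyte and ependymal markers (5 tested) held none at an unadjusted p under 0.05, and Crym and Rarres2 were at -0.21 ± 0.26 and -0.066 ± 0.16 (Rarres2 at -0.10 without libraries 45 to 48). Folr1, the 1 choroid plexus marker tested, lay between 3.73 and 28 CPM with PFOS alone (median 8.07) and between 5.71 and 20.5 CPM with the combination (median 9).

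Vessel and connective tissue markers were also below 0 for the most part. Of 9 endothelial and mural markers 8 were below 0, with the adhesion molecule gene Pecam1 at -0.39 ± 0.18 (p = 0.0336; -0.064 without libraries 45 to 48) and the smooth muscle gene Tagln at -0.41 ± 0.21 (p = 0.05). Tight junction genes showed the occludin gene Ocln between 7.47 and 28 CPM with PFOS alone (median 13.5) and between 4.5 and 14.7 CPM with the combination (median 5.93), at -0.76 ± 0.25 (p = 0.00317, adjusted p = 0.479), and the claudin gene Cldn5 at -0.31 ± 0.17 (p = 0.0702; -0.50 without libraries 45 to 48). The drug efflux pump gene Abcb1a was at -0.37 ± 0.17 (p = 0.0363). The collagen gene Col1a1 was at -0.75 ± 0.36 (p = 0.0427) and the growth factor gene Igf2, made in meninges, at -0.64 ± 0.45 (p = 0.158).

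Hemoglobin transcripts gave the lowest median of the cell type markers with at least 5 genes tested. The summed level of 9 blood cell markers was 3415 to 7810 CPM with PFOS (mean 5691 ± 1290, SD, n = 12) and 2972 to 6114 CPM with the combination (mean 4113 ± 945, n = 11). The ranges overlapped, and library 31 lay near the PFOS median at 5293 CPM. All 5 tested markers were below 0, with a median of -0.45. At an unadjusted p under 0.05, 4 of the 5 were lower, beside 4.52% of all genes. All 4 were globin genes, which are not independent of each other, so they do not count as 4 separate results. The beta globin gene Hbb was between 1009 and 2325 CPM with PFOS alone (median 1539) and between 899 and 1769 CPM with the combination (median 1117), at -0.48 ± 0.14 (p = 0.000914), and Hbb-b1 was at -0.45 ± 0.12 (p = 0.000638). The alpha globin genes Hba-a1 and Hba-a2 were at -0.45 ± 0.14 and -0.50 ± 0.16. Globin genes are near-identical copies, so the split of reads between them is uncertain. The heme synthesis gene Alas2 was at -0.22 ± 0.21 (p = 0.306). The median of the list stayed between -0.55 and -0.37 over 16 alternatives, at -0.44 with log2 depth as a covariate and at -0.54 without the 4 libraries of other barcode composition. The part that blood left in the tissue takes in the other differences was not tested.

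Pituitary hormone transcripts were present in every hypothalamus library. Gh1 (growth hormone) was between 3900 and 5131 CPM with PFOS alone (median 4492) and between 3690 and 5642 CPM with the combination (median 4363), a difference of -0.029 ± 0.082 (adjusted p = 0.973), and of -0.046 without libraries 45 to 48. Lhb, the luteinizing hormone beta subunit gene, was between 118 and 183 CPM with PFOS alone (median 144) and between 85.6 and 150.2 CPM with the combination (median 116), at -0.33 ± 0.10 (p = 0.00126). The common glycoprotein hormone subunit gene Cga was at -0.30 ± 0.33 and the thyrotropin subunit gene Tshb at -0.29 ± 0.38, both with SEs as large as the difference. Each was below its PFOS median in 10 of 11 combination libraries. Medians with PFOS and the combination were 655 and 432 CPM for Cga and 258 and 211 CPM for Tshb. The highest combination values were 1584 CPM (Cga) and 764 CPM (Tshb). In rats without PFOS, vancomycin gave -0.58 ± 0.32 for Cga and -0.73 ± 0.36 for Tshb, against vehicle. There Lhb was at 0.0060 ± 0.090 and Gh1 at -0.053 ± 0.080, and no gene passed the adjusted test. The part of pituitary transcripts in other results was not tested.

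**Figure D5:**
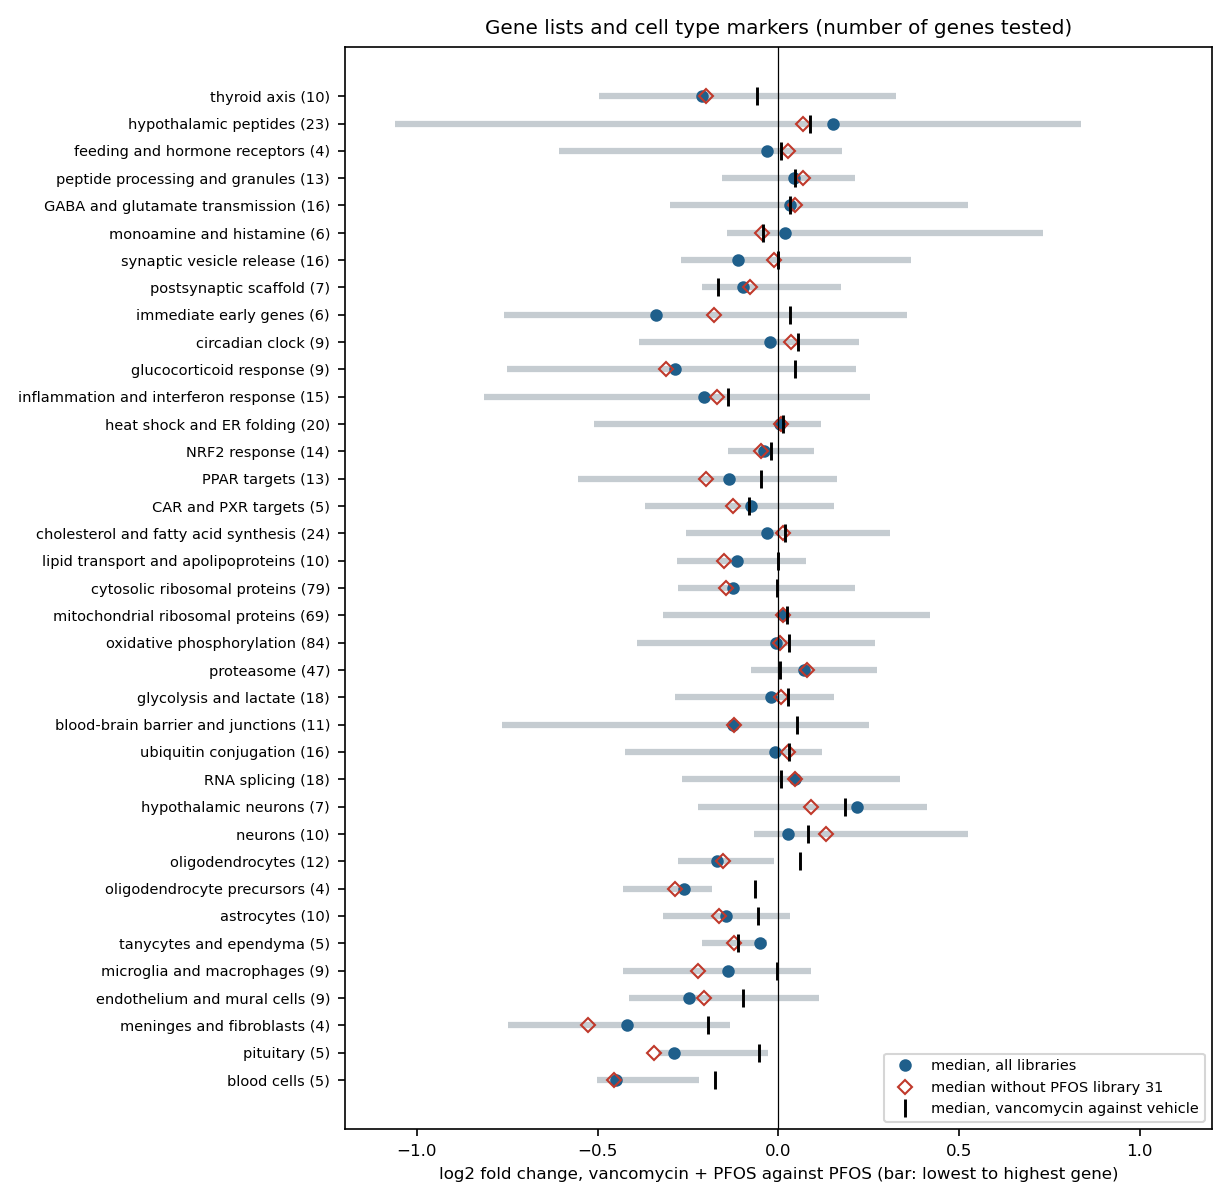
Median log2 fold change of the combination against PFOS for each gene list and marker list with at least 4 genes tested (circles), the same without PFOS library 31 (open diamonds), the median for vancomycin against vehicle (vertical ticks) and the range from the lowest to the highest gene (bars). Blood cells lie at -0.45, cytosolic ribosomal proteins at -0.12 and the proteasome at 0.070.

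Cytosolic ribosomal protein genes, the protein part of the translating ribosome, lay lower by a small amount. Of 79 tested, 75 were below 0, beside 3406 of all 6596, with a median of -0.12 beside -0.0072 over all genes. At an unadjusted p under 0.05, 9 were lower, beside 4.52% of all genes. Without library 31, 29 were lower at that level, beside 4.67% of all genes. Rps25 was between 1579 and 2437 CPM with PFOS alone (median 2018) and between 1399 and 2258 CPM with the combination (median 1778), at -0.19 ± 0.063 (p = 0.00362, adjusted p = 0.479), and Rpl34 was at -0.16 ± 0.057 (p = 0.0068). Depth moved with this result. With libraries under 500000 counts left out, the median was -0.049 with 0 genes lower at an unadjusted p under 0.05, and with log2 depth as a covariate it was -0.028 with 3 lower and Rps25 at -0.12.

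Proteasome subunit genes lay slightly the other way, with 39 of 47 above 0, beside 3190 of all 6596, and a median of 0.070. At an unadjusted p under 0.05, 4 were higher, beside 2.91% of all genes. Psmd7, a subunit of the regulatory cap, was between 101 and 186 CPM with PFOS alone (median 134) and between 112 and 219 CPM with the combination (median 151), at 0.27 ± 0.10 (p = 0.00869). Psma6 of the core was at 0.11 ± 0.054 (p = 0.0393), at 0.10 (p = 0.0645) without library 31 and at 0.072 without libraries 45 to 48. The median kept its sign in all 16 alternatives, and without library 31 and the 4 libraries of other barcode composition 26 of 47 were above 0. Mitochondrial lists centred near 0. Mitochondrial ribosomal proteins had a median of 0.012 over 69 genes (-0.022 without libraries 45 to 48), with Mrpl1 at 0.30 ± 0.12 and Mrpl16 at -0.20 ± 0.093. Oxidative phosphorylation had a median of -0.0071 over 84 genes (-0.032 without those 4). At an unadjusted p under 0.05, 4 of the 84 were lower, beside 4.52% of all genes. The complex III subunits Uqcr10 and Uqcrh were at -0.13 ± 0.051 and -0.16 ± 0.064 (Uqcrh at -0.10 with log2 depth as a covariate). Of 18 splicing factors, Tra2b was at 0.19 ± 0.088 (p = 0.0326) and Hnrnpa1 at -0.27 ± 0.12 (p = 0.0281; 0.018 without libraries 45 to 48).

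Targets of the receptors that PFOS is known to activate in liver gave no called gene. Of 13 tested targets of PPAR, the fatty acid receptors, 11 were below 0 with a median of -0.14, and of -0.085 without libraries 45 to 48. The mitochondrial thioesterase gene Acot2 was between 134 and 234 CPM with PFOS alone (median 203) and between 32.5 and 244 CPM with the combination (median 154), at -0.55 ± 0.20 (p = 0.00758), and at -0.13 without the 4 libraries of other barcode composition. Cpt1a, which admits fatty acids to mitochondria, was at -0.46 ± 0.22 (p = 0.0389), and at -0.058 without those 4. Among targets of the xenobiotic receptors CAR and PXR, 5 were tested and the epoxide hydrolase gene Ephx1 was at -0.28 ± 0.17, while Cyp2b1 had 0 counts over the 23 libraries, with the same upper limit of 0.21 CPM. Of 24 genes of cholesterol and fatty acid synthesis, 1 was higher at an unadjusted p under 0.05, the squalene epoxidase gene Sqle at 0.27 ± 0.11 (p = 0.0145), and the desaturase gene Fads1 was at -0.23 ± 0.12. The apolipoprotein gene Apod, abundant in glia, was between 1375 and 2560 CPM with PFOS alone (median 1881) and between 1352 and 1971 CPM with the combination (median 1557), at -0.28 ± 0.092 (p = 0.0035), and Apoe was at -0.21 ± 0.16.

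Stress and redox genes centred near 0. Heat shock and endoplasmic reticulum folding genes had a median of 0.0056 over 20 genes, with 1 lower, Sdf2l1 at -0.51 ± 0.21 (p = 0.0192), and Pdia3 at -0.18 ± 0.11. Without libraries 45 to 48 they were at -0.25 and -0.30. The NRF2 list, the antioxidant response, held 0 of 14 genes at an unadjusted p under 0.05, with the ferritin gene Fth1 at -0.087 ± 0.074 and the NRF2 inhibitor gene Keap1 at -0.14 ± 0.15 (-0.064 without libraries 45 to 48). In glycolysis, beside Aldoc, the lactate dehydrogenase gene Ldha was between 1055 and 1415 CPM with PFOS alone (median 1208) and between 1035 and 1641 CPM with the combination (median 1333), at 0.15 ± 0.067 (p = 0.0265), and at 0.091 without libraries 45 to 48.

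Whether vancomycin acted differently with PFOS than without it was tested as an interaction. No gene passed, with 0 of 6596 (0%) called, a smallest adjusted p of 0.971 and 278 genes (4.21%) at an unadjusted p under 0.05 in edgeR; DESeq2 and limma voom called 0 as well, with 267 and 394 at that level. Vancomycin against vehicle called 0 of 6596 (0%), with 184 genes (2.79%) at an unadjusted p under 0.05, and 0 in DESeq2 and limma voom with 174 and 313. Of the 490 genes at an unadjusted p under 0.05 in PFOS-treated rats, 279 (56.9%) had the same sign in rats without PFOS, beside 52.4% of all 6596 genes. Across genes, which are not independent replicates, the correlation of the fold changes in these unshared libraries was 0.067 (Pearson) and 0.061 (Spearman). The globin genes had the same sign in both settings, with Hbb at -0.48 ± 0.14 with PFOS and -0.26 ± 0.13 without it. Among the 20 genes of smallest p, Etv1 was at -0.73 with PFOS and 0.19 without it, and Raly at -0.55 and 0.18. The interaction was -0.91 ± 0.26 for Etv1 (unadjusted p = 0.00087) and had an unadjusted p of 0.000803 for Raly. The 20 genes were picked by the combination against PFOS, which is part of the interaction, so these p-values are no independent evidence. Without library 31 the difference of Etv1 with PFOS was -0.52. Trh was at 0.33 and -0.030 ± 0.15, an interaction with an unadjusted p of 0.121.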

How the data were processed

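The authors deposited counts, as whole numbers for each gene in each library. Per the labels' protocols, libraries were made by template switching and tagmentation from total RNA at a set concentration. The submitters' processing notes name BWA 0.7.4.4 and rn6 with no stated role. The remaining steps from reads to counts, and whether counting used strand, were not given in the sources used here.

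Libraries under 100000 counts were left out (1 of 24). The 4 hypothalamus groups entered 1 edgeR 4.0.16 quasi-likelihood fit in R 4.3.3 (filterByExpr at a minimum count of 10, TMM factors, robust dispersion). The same fit was run on simulated counts with known changes. These held no library that stood apart and no effect of barcode, so the simulation could not test how the fit handles them. P-values were adjusted by the Benjamini-Hochberg method over 6596 genes, and SE is the log2 fold change divided by the square root of F. DESeq2 1.42.0 and limma 3.58.1 were alternatives. Of 17483 gene names, 15578 matched a RefSeq table (GRCr8) by symbol and 1556 by synonym, used for names only.

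The comparison, its 26 gene lists and 13 marker lists were chosen with earlier results of these data known. Genes were named by rule: the 20 of smallest p, 12 hormone and peptide genes, and the 2 of smallest p in each list, of which some are not reported here. Other genes were chosen after their values were seen. Of the 16 alternatives, 12 were planned and 4, including those without PFOS library 31, were chosen after seeing the data.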

Additional observations from a re-analysis of the deposited data

How the results depend on the processing

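The count of called genes was 0 under 14 of 16 alternatives for the combination against PFOS, under every alternative run for the interaction and for vancomycin against vehicle. The exceptions were log2 depth as a covariate, with all libraries and without PFOS library 31, which each called 1 gene, Padi2, at -0.74 and -0.77. Of 124 genes followed, 109 kept their direction in every alternative in which they were tested, and 38 of 1928 values reversed. Without PFOS library 31 these were Dio2 at 0.034, Npy at -0.015 and Prkcd at 0.13, and without the shallowest combination library, 41, which reversed none of them, Dio2 was at -0.011, Npy at 0.092 and Prkcd at -1.27. Without library 31 and the 4 libraries of other barcode composition the reversed values were Dio2 at 0.088, Oxt at -0.093, Npy at -0.19, Vamp2 at 0.029, Bhlhe40 at 0.19, Prkcd at 0.29, Tcf7l2 at 0.042, Sst at -0.094 and Gal at -0.027. Without those 4 alone they were Thra at 0.014, Dio2 at 0.054, Npy at -0.076, Bhlhe40 at 0.052 and Hnrnpa1 at 0.018, and with barcode composition as a covariate Thra at 0.013, Dio2 at 0.052, Npy at -0.078, Bhlhe40 at 0.051 and Hnrnpa1 at 0.017. With log2 depth as a covariate they were Thra at 0.068 and Npy at -0.0063, and with library 31 left out as well Thra at 0.0099, Npy at -0.075, Prkcd at 0.11 and Sst at -0.029. Thinned to 172700 counts a library, they were Thra at 0.021, Npy at -0.035, Pdia3 at 0.0067 and Hcrt at -0.032. Limma voom gave Npy at -0.019 and Prkcd at 0.19, the minimum of 500000 counts Hdc at 0.073, well column as a factor Dio2 at 0.0060, and all libraries kept Dio2 at 0.017 and Gh1 at 0.53. The cause of these reversals was not tested.

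No filter on low counts tested 15338 genes, thinning 3149 and the 2 groups alone 5310. Depth limited the test to 6596 of 17483 genes, and treatment cannot be told apart from plate row. No paired analysis was possible because the groups compared share no animal number.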

Other observations

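PFOS library 31 also entered the comparison of PFOS with vehicle in the hypothalamus. There edgeR called 288 of 6596 genes, 76 higher and 212 lower, with this library and 54 of 6537, 13 higher and 41 lower, without it. The phosphatase gene Dusp6 was at 0.92 on the log2 scale (adjusted p = 0.0222) with it and at 0.69 (adjusted p = 0.0715) without it. The stem cell factor gene Kitlg was at 0.92 (adjusted p = 0.0362) and 0.40 (adjusted p = 0.309).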
